A study of Homo sapiens with 54 samples.

Results

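The regions described here had a peak in every MDA-MB-231 peak list, before and after cisplatin, and in no PC3 list. They were chosen by merging the ATAC-seq peaks of 18 peak lists on chromosomes 1 to 22 and X, scoring a region present in any list with a peak on 1 or more of its bases, and keeping those present in 9 of 9 MDA-MB-231 lists and 0 of 9 PC3 lists. This gave 6015 of 232138 merged regions (2.59%). They made up 9.24% of the 65125 regions present in all 9 MDA-MB-231 lists, of which 46041 (70.7%) were present in all 18 lists. MDA-MB-231 comes from a triple-negative breast tumour, and PC3 from a bone metastasis of a prostate tumour. Both lines were left untreated as control, or given cisplatin, whose platinum links DNA bases, and survivors were collected 1 day or 10 days past drug removal. The 6 groups comprised 3 biological replicates apiece, split into 3 experimental replicates each, for 54 sequenced samples, and the files hold 1 peak list per biological replicate (n = 3 lists per group). Each tumour type is represented by a single line, so that tissue, donor and line cannot be told apart.

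ATAC-seq uses a transposase that cuts and tags DNA where nucleosomes leave it free, so its peaks mark active promoters, enhancers and insulator sites. Promoters of widely used genes are open in most cells, while enhancers tend to be open in the cell types that use them. A region can lack a peak because its chromatin is closed, or because the DNA itself has been lost, as happens in cancer lines. PC3 is known as a line without STAT3, a transcription factor downstream of cytokine receptors. DNA copy number was not measured here, so absent DNA and closed chromatin cannot be told apart.

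Sequences around gene starts in these regions are shown for 6 genes on which the results below turn: the starts of TSPAN14, STAT3 and TIMP3 lie in stretches where no PC3 list had a peak, FGFR3 has one of the widest regions, and SMAD3 and GATA3 lead their gene lists. Each is the RefSeq window (build GRCh38.p14) from 250 bases before to 50 bases after the first transcribed base, written 5′ to 3′ along the gene. A gene can have more than 1 start in that table, and any of them counted. The SMAD3 start shown, at 67098679, lies inside the gene, whose body runs from 67065602 to 67195169. Capitals mark matches, on either strand, to any of 10 short motifs searched.
TSPAN14 (chr10:80454060-80454359, plus strand): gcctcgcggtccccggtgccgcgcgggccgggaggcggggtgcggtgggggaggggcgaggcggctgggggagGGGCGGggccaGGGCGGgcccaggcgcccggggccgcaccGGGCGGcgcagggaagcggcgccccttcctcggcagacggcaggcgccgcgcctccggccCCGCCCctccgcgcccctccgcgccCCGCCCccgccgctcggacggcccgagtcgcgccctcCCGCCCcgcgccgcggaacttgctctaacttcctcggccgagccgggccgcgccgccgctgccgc
FGFR3 (chr4:1793043-1793342, plus strand): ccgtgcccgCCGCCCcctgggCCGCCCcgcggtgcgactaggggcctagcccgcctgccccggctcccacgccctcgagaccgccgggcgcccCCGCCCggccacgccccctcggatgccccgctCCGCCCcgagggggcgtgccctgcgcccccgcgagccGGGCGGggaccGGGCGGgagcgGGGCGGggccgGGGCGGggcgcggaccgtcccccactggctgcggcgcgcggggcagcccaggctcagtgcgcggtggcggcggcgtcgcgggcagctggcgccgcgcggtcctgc
STAT3 (chr17:42388393-42388692, minus strand): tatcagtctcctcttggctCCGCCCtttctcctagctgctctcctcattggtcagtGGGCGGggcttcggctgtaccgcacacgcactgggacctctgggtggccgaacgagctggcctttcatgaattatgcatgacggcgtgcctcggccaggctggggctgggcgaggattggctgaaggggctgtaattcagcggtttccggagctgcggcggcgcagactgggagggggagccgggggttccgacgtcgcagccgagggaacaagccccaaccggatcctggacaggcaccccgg
TIMP3 (chr22:32801455-32801754, plus strand): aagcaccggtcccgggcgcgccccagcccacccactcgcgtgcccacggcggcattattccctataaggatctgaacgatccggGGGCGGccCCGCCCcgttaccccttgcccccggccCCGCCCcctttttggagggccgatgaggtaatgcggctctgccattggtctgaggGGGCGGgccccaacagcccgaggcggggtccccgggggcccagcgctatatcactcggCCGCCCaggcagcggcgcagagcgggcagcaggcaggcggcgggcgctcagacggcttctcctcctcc
SMAD3 (chr15:67098429-67098728, plus strand): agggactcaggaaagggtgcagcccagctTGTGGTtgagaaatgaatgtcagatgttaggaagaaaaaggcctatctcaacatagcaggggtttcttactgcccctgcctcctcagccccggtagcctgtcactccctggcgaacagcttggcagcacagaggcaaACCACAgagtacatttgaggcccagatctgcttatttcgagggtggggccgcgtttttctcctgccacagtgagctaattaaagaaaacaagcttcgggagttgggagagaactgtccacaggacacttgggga
GATA3 (chr10:8045083-8045382, plus strand): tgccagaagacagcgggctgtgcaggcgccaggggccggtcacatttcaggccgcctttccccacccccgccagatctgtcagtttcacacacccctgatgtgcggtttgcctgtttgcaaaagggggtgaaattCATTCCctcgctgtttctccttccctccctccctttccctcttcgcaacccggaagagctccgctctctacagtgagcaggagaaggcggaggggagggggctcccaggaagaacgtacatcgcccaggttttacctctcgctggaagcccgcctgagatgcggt
In the first 4 windows the capitals are GC boxes (GGGCGG, or CCGCCC on the other strand), the element bound by SP family factors, with 6 matches at TSPAN14, 8 at FGFR3, 2 at STAT3 and 5 at TIMP3. At SMAD3 they are 2 matches to a RUNX motif (TGTGGT), and at GATA3 1 match to a TEAD motif (GGAATG). Of all 34789 distinct windows of 300 bases, 44.9% hold a GC box, 13.1% the RUNX motif and 14.1% the TEAD motif, so each match is common. The window of FGFR3 has 51 CpG dinucleotides and that of the internal SMAD3 start has 6.

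The lists carried 82392 to 133526 peaks in MDA-MB-231 and 106577 to 165535 in PC3, and their read depth is unknown. Replicate 1 lists of MDA-MB-231 had narrower peaks, with a median covered length of the 6015 regions of 392 to 469 bp against 436 to 567 bp in the other 6 lists. Of 26 line markers checked for a peak within 1 kb of either gene end, KLK3, which encodes PSA, and CDH2 (N-cadherin) had one in 0 of 9 MDA-MB-231 lists and 9 of 9 PC3 lists, and GATA3, a luminal breast factor, in 9 and 0. The defining markers PTPRC of blood cells and PECAM1 and TEK of endothelium had none in either line, and CDH5, also endothelial, had one in 2 PC3 lists. ESR1, the oestrogen receptor gene of luminal breast cells, had one in 0 MDA-MB-231 and 2 PC3 lists. CD3E and SPI1, also blood markers, had one in all 18 lists, and so did HOXB13, which marks prostate, and SYP and SNAP25, which mark neurons.

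The regions were narrower and weaker than those shared by both lines. Their covered length, the bases under a peak averaged over the 9 lists, had a median of 492 bp and ran from 172 to 5867 bp, against a median of 682 bp for regions in all 18 lists and 463 bp for the 14245 regions in 9 of 9 PC3 and 0 of 9 MDA-MB-231 lists. The peak area assigned by the authors' peak caller had medians of 683, 1207 and 680 in these 3 classes. Just outside the rule, 1151 regions were present in 9 MDA-MB-231 lists and 1 PC3 list (median length 439 bp), and 1502 in 8 MDA-MB-231 lists and no PC3 list (295 bp). Presence rests on peaks called, so a weak peak under the caller's threshold counts as absence, and no test is given for what the rule used.

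Most of the regions lay inside genes and away from their ends. Of the 6015, 9.99% lay within 1 kb of an end of a protein-coding gene, 52.5% elsewhere in a gene body and 37.5% between genes. Regions in all 18 lists were at gene ends in 24.5% and in gene bodies in 37.3%, and PC3-only regions in 4.04% and 41.2%. The median distance from a region's middle to the nearest gene end was 21.6 kb, against 13.8 kb for regions in all 18 lists and 53.0 kb for PC3-only regions. The nearest PC3 region was close for many: the median distance was 3.23 kb, and 1404 regions (23.3%) had one within 1 kb. At the other extreme 1287 (21.4%) were more than 10 kb from any PC3 region, and 74 more than 100 kb.

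The share of constant MDA-MB-231 regions that PC3 lacked was uneven across chromosomes. It was 13.9% on chromosome 13 (222 of 1598), 13.0% on chromosome 4, 12.9% on chromosome 22 and 12.7% on chromosome 9. The lowest shares were 4.90% on chromosome 14 (99 of 2019), 6.42% on chromosome 20 and 6.57% on chromosome 8. Chromosome 1 had the most regions, 585, at a share of 9.12%, close to that of all chromosomes.

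**Figure D1:**
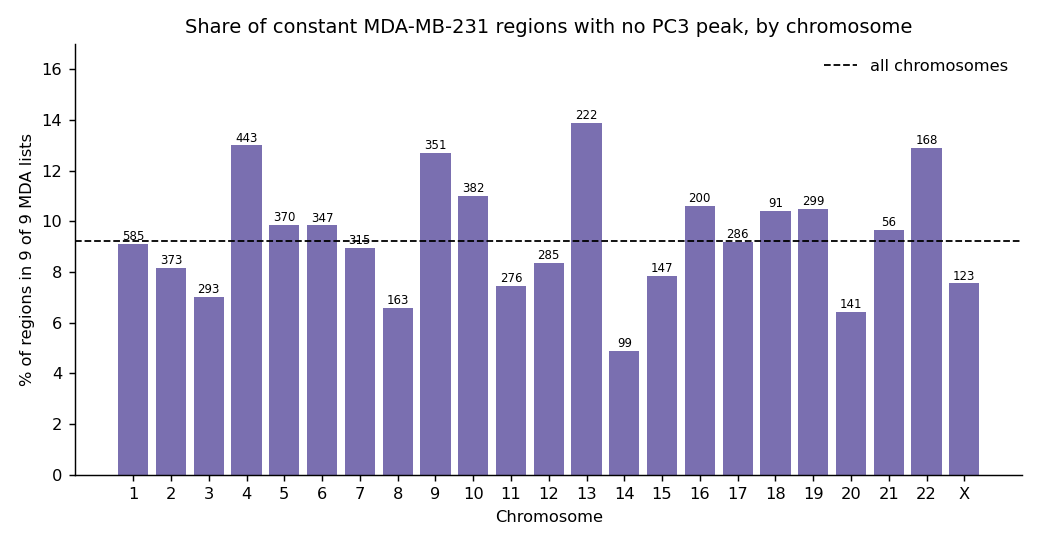
Bars give, for each chromosome, the percentage of the regions present in 9 of 9 MDA-MB-231 lists that had no peak in any PC3 list; the number above a bar is the count of such regions and the dashed line the value over all chromosomes (9.24%). Chromosome 13 stands highest at 13.9% and chromosome 14 lowest at 4.90%.

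Some of the regions stood together in long stretches where no PC3 list had a peak. There were 94 stretches between neighbouring PC3 regions that held at least 3 of the 6015, with 387 in all; 21 of these stretches were at least 100 kb long and held 142 (2.36%), and the other 5873 regions lay outside them. RNLS, the renalase gene on chromosome 10, had 9 of the regions in its body and 10 kb on each side, and no PC3 region.

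Several of the longest stretches held few regions. A stretch of 641 kb on chromosome 10 (47553725 to 48194377) with ANXA8 and FRMPD2 held 3, and 554 kb on chromosome 8 (15789378 to 16343313) with TUSC3 and MSR1, the macrophage scavenger receptor gene, held 3. On chromosome 19, 464 kb (20039739 to 20503430) with the zinc finger genes ZNF90 and ZNF486 held 5. On chromosome 16, 458 kb (13377544 to 13836016) with SHISA9, an AMPA receptor regulator, held 4. Stretches without a PC3 peak were common in the genome: 2797 were at least 100 kb long, and 2543 of them held none of the regions.

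The stretches with the most regions, named here after their values were seen, were denser. On chromosome 17, 414 kb (42102193 to 42516283) held 35 regions, or 8.45 per 100 kb. It covers the cytokine-response factors STAT3, STAT5A and STAT5B, KAT2A, a histone acetyltransferase, RAB5C, an early endosome GTPase, and CAVIN1, a caveolar coat gene. On chromosome 10, 344 kb (80222938 to 80567163) held 19, across TSPAN14, which encodes a tetraspanin partner of ADAM10, SH2D4B, PRXL2A and MAT1A. On chromosome 5, 259 kb (138755172 to 139014474) held 9 in CTNNA1, the alpha-catenin of adherens junctions, LRRTM2 and SIL1. A 64.6 kb stretch on chromosome 22 at SYN3 and TIMP3 held 7, and 53.1 kb on chromosome 19 around CIC held 6.

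**Figure D2:**
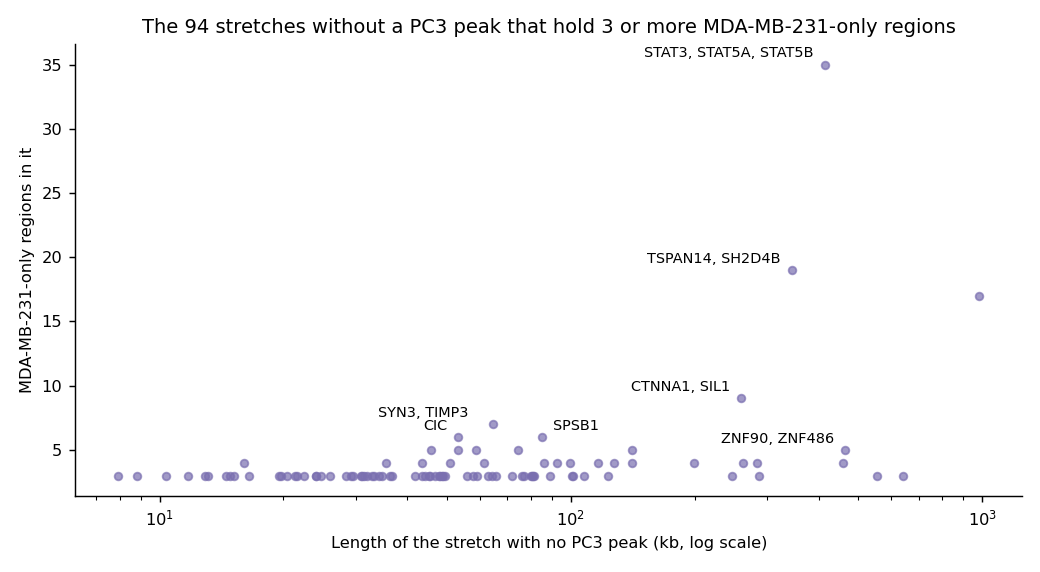
Each point is a stretch between neighbouring PC3 regions that holds at least 3 MDA-MB-231-only regions; the x axis is its length in kb on a log scale and the y axis the number of those regions in it, with genes named for 7 stretches. The stretch with STAT3 holds 35 in 414 kb and that with TSPAN14 19 in 344 kb, while most hold 3 or 4.

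The widest of the regions lay mostly at gene starts or inside genes. The first covers part of CIC, a transcriptional repressor downstream of RAS and MAPK signalling (chromosome 19, 42279052 to 42285753). Its covered length was 5876, 6106 and 6536 bp in the control lists, 5734, 5839 and 6057 bp at day 1 and 5186, 5626 and 5843 bp at day 10. At IRX3, a homeobox gene (chromosome 16, 54283704 to 54288013), it was 4055, 4107 and 4258 bp, then 3811, 3609 and 3741 bp, then 2939, 2470 and 3757 bp. Neither region passed the test between groups described below.

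The others among the 10 widest had means of 2519 to 3182 bp over the 9 lists. They lie at CDH4, the R-cadherin gene, TSPAN14, FGFR3, a fibroblast growth factor receptor, SH3PXD2A, which encodes the invadopodium scaffold TKS5, GPSM1, CAVIN3 and CCDC187, and 34.8 kb from PDGFA, a platelet-derived growth factor gene. The region at FGFR3 (chromosome 4, 1790740 to 1795406) covered 3537, 4437 and 4391 bp in control, 3097, 2647 and 2068 bp at day 1 and 1653, 1784 and 2858 bp at day 10. All 6 treated lists lay below all 3 control lists, but the log2 differences of -0.67 at day 1 (SE 0.20) and -0.81 at day 10 (SE 0.20) did not pass (limma adjusted p = 0.0856 and 0.0523). In peak area rank, described below, it fell by 15.4 points at day 10 (limma adjusted p = 0.00214).

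By gene, 3644 of 19974 protein-coding genes (18.2%) had at least 1 of the regions in the body or within 10 kb, and 70 had 5 or more. SYN3, a synapsin gene whose body overlaps TIMP3, had 15. FRMD4A, a cell polarity scaffold, had 14, PDE4D, a cAMP phosphodiesterase, 12, and PPARGC1A, the coactivator of mitochondrial genes, and TENM3, a teneurin adhesion gene, 11 each. With 10 each followed TSPAN14, CDH4, STAT3, TMEM132D and PALLD, an actin-associated protein gene; CELF2, an RNA-binding protein gene, also had 10 and came after them by covered length. Long genes can hold more: genes with a region had a median length of 51.7 kb, against 24.2 kb for all.

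TSPAN14 and STAT3 were short for this group, at 68.3 and 75.1 kb. In both, all 10 regions present in 9 of 9 MDA-MB-231 lists lacked a PC3 peak and PC3 had no region at all. In SYN3 15 of 23 did, with 21 PC3 regions, and in FRMD4A 14 of 42, with 55 PC3 regions. PALLD, with 10 of 40 and 54 PC3 regions, was mostly shared.

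Among receptor tyrosine kinases 14 of 30 had one (46.7%, against 18.2% of all protein-coding genes), led by ROR1 with 4, IGF1R, the insulin-like growth factor receptor, and EPHA4, an ephrin receptor, with 3 each, and FGFR3 with 2. Among TGF-beta family genes 8 of 29 did (27.6%), led by SMAD3, which carries the receptor's signal to the nucleus, with 4, and followed by LTBP2, BMP2 and BMPR1A with 1 each. The list medians for gene length were 101 and 80.6 kb, against 24.2 kb for all genes, and gene length was not taken out of these shares. In the same reach ROR1, IGF1R, EPHA4 and FGFR3 had 24, 20, 7 and 4 regions in all 9 MDA-MB-231 lists. PC3 had 55, 30, 10 and 3 regions there. For SMAD3, LTBP2, BMP2 and BMPR1A these numbers were 20, 16, 2 and 4, with 29, 26, 3 and 13 in PC3.

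Mesenchymal genes and genes of the matrix and its proteases had the regions in 34.8% (8 of 23), 33.3% (10 of 30) and 38.5% (10 of 26). ZEB1, a repressor of epithelial genes, had 2, and AXL, a receptor kinase, LOXL2, a collagen crosslinking enzyme, and PRRX1 had 1 each. COL4A2, a basement membrane gene, had 3, FBN2 had 2 and COL5A1 had 1. ADAMTS12, a matrix protease, had 4, TIMP3, a metalloproteinase inhibitor, 3, and ADAM12 2. In the same reach ZEB1, AXL, LOXL2 and PRRX1 had 6, 4, 15 and 2 regions in all 9 MDA-MB-231 lists. PC3 had 11, 5, 22 and 3 regions there. For COL4A2, FBN2 and COL5A1 these numbers were 20, 5 and 9, with 25, 13 and 16 in PC3. For ADAMTS12, TIMP3 and ADAM12 they were 14, 3 and 18, with 23, 1 and 42 in PC3. The list medians for gene length were 42.5, 84.8 and 16.9 kb, against 24.2 kb for all genes. Gene length was not taken out of these shares. Of the integrin genes, 2 of 20 had a region (10.0%), ITGA6 and ITGB5.

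Lineage lists were mixed. Of the epithelial genes, 5 of 24 had a region (20.8%): CDH1, the E-cadherin gene, had 3, and SPINT2, CDH3 and KRT8 had 1 each. CDH1 had a peak within 1 kb of an end in 4 MDA-MB-231 and 9 PC3 lists. In its body and 10 kb on each side, 11 regions were in all 9 MDA-MB-231 lists, and PC3 had 15 regions. Of the luminal breast genes, 2 of 15 did (13.3%), GATA3 with 4 and ERBB3 with 1. All 4 regions of GATA3 present in the 9 MDA-MB-231 lists met the rule, while PC3 had 4 regions of its own in that reach. Of the prostate genes, 1 of 15 did, TMPRSS2 with 2.

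For transcription factors, 8 of 17 RUNX and ETS genes had a region (47.1%, median gene length 75.5 kb), with 3 at ETV6, 2 at ETS1 and 1 each at ELF1 and EHF, and 3 of 17 AP-1 and MAF genes did (17.6%), with 2 at FOSL2, 2 at MAFF and 1 at MAF. VGLL4, TEAD1 and AJUBA had 1 each among 17 TEAD and YAP genes. Of 39 HOX genes 7 had 1 (17.9%); HOXD3 and HOXD4 share theirs, HOXD1 has its own of 2498 bp on average, and no PC3 region lay within 10 kb of these 3, whereas HOXA3, which shares its region with HOXA4, HOXA5 and HOXA6, had 12 PC3 regions. Interferon-stimulated genes had one in 5 of 24 (20.8%), with 3 at IFI35, 2 at IFI6 and 1 at IRF1 and at IFI44, and secreted inflammatory genes in 3 of 24 (12.5%), with 2 at CSF3, the G-CSF gene, and 1 each at IL32 and CSF2.

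Of the lists of other cell types, neuronal genes had one in 2 of 20 (10.0%, ENO2 and RBFOX1), blood genes in 2 of 18 (11.1%, CD4 and CD14) and endothelial genes in 3 of 15 (20.0%, ENG, VWF and TEK). Of the housekeeping genes 1 of 18 did (5.56%), SDHA.

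**Figure D3:**
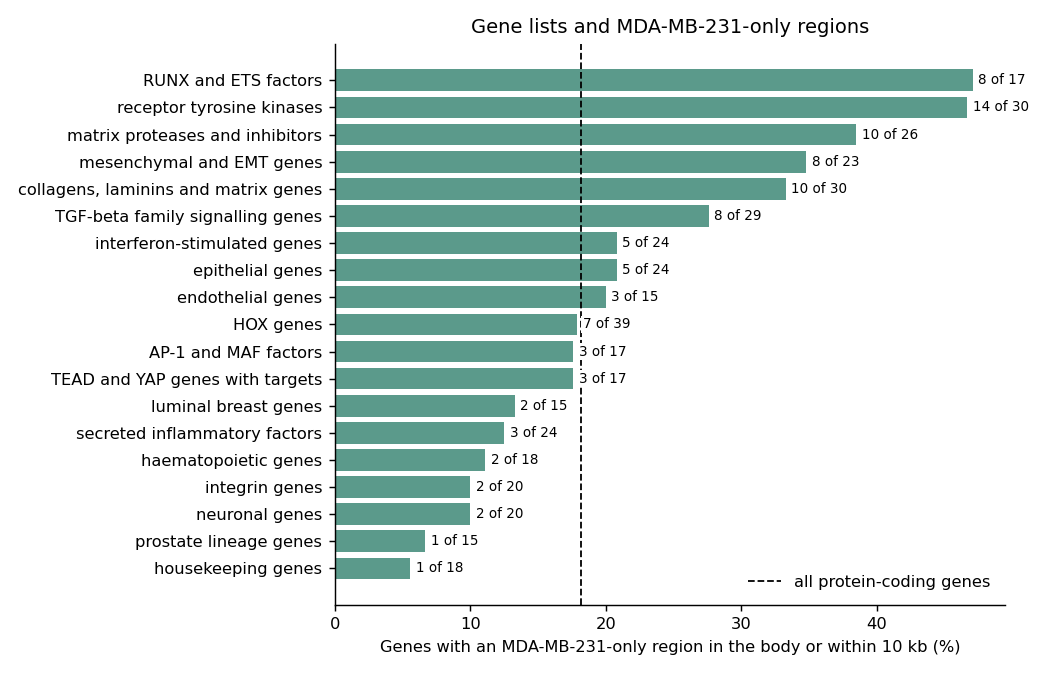
Bars give the percentage of genes in each of 19 lists with at least 1 MDA-MB-231-only region in the body or within 10 kb, with the counts beside them; the dashed line is the share of all protein-coding genes, 18.2%. RUNX and ETS factors (8 of 17) and receptor tyrosine kinases (14 of 30) stand highest and housekeeping genes (1 of 18) lowest.

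A small part of the regions held a gene start. Of the regions outside chromosome 8, which the promoter table does not cover, 7.71% contained the first base of a RefSeq promoter window, against 22.2% of regions in all 18 lists and 3.06% of PC3-only regions. They held a start of 341 protein-coding genes, counting any start in the promoter table. Of these genes 39 (11.4%) were named as zinc finger genes (ZNF, ZFP or ZSCAN with a number). The share was 2.90% over all 15693 protein-coding genes with a window, 3.38% of genes starting in regions of all 18 lists and 2.33% (6 of 258) in PC3-only regions. This count was made after the genes were seen. Many zinc finger genes of this kind encode KRAB repressors of transposable elements, and 27 of the 39 lie on chromosome 19, where neighbouring copies share sequence. That chromosome also held 222 of all 455 zinc finger genes with a window. It held 146 of the 309 starting in regions of all 18 lists and 4 of the 6 in PC3-only regions.

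The zinc finger starts ranged from ZNF140, with a mean covered length of 2105 bp, to ZNF516, with 370 bp. ZNF90 and ZNF486 (1330 and 1170 bp) start in the chromosome 19 stretch without PC3 peaks given above. At ZNF486 the covered length was 1212, 1421 and 1438 bp in control, 947, 978 and 1124 bp at day 1 and 954, 1238 and 1217 bp at day 10. All day 1 lists lay below control, while day 10 lists overlapped it. The length did not pass at day 1 (log2 -0.41, limma adjusted p = 0.0901), while in the peak area rank described below it fell by 3.7 points at day 1 (limma adjusted p = 0.0142) and rose by 5.6 points from day 1 to day 10 (limma adjusted p = 0.00725).

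In CpG count and GC boxes the windows starting in these regions lay between all windows and those in shared regions, and in ETS, FOXA and AP-1 motifs below both. Of 569 windows, 71.4% had at least 10 CpG dinucleotides, against 56.3% of all windows, 88.4% of those in regions of all 18 lists and 52.6% of those in PC3-only regions; the medians were 19.0, 14.0, 26.0 and 11.0. A GC box was in 55.9%, against 44.9% of all windows, 69.8% in shared and 42.1% in PC3-only regions. An ETS motif (CCGGAAGT) was in 2.99%, against 4.12%, 7.82% and 0.825%. The FOXA motif (TGTTTAC) was in 1.41% against 3.42% of all, 2.38% in shared and 5.98% in PC3-only regions, and AP-1 (TGANTCA) in 5.98% against 7.69%, 6.22% and 12.4%. Shares for TEAD (14.9% against 14.1% of all), RUNX (10.9% against 13.1%), CTCF (3.16% against 2.42%) and the E-box of ZEB and SNAI (CAGGTG, 18.8% against 20.6%) were closer. The NF-kappaB motif was in 2 windows (0.351% against 1.61%) and the steroid receptor motif in 1 (0.176% against 0.391%). Both strands were searched, and bases where motifs overlap counted for each motif. Windows of neighbouring starts overlap, so they are not independent, and no test was made.

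The regions also held 14 of 1550 miRNA hairpins of the RefSeq table, in 13 regions; 217 hairpins lay in regions present in all 9 MDA-MB-231 lists. A miRNA pairs with its targets mainly through its seed, bases 2 to 8, set in capitals here. Named after their values were seen, MIR152 lies in COPZ2 (region at chromosome 17, 48036793 to 48038451), MIR4321 at SF3A2 and AMH, the anti-Müllerian hormone gene (chromosome 19, 2248511 to 2251064), and MIR6775 in SLC7A5, an amino acid transporter gene (chromosome 16, 87834515 to 87835516).
hsa-miR-152-3p: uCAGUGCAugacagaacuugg
hsa-miR-4321: uUAGCGGUggaccgcccugcg
hsa-miR-6775-5p: uCGGGGCAugggggagggaggcugg
The seed of hsa-miR-152-3p is shared by hsa-miR-148a-3p and hsa-miR-148b-3p in that table. At MIR152 the covered length was 1452, 1544 and 1567 bp in control, 1509, 1470 and 1509 bp at day 1 and 1160, 1523 and 1288 bp at day 10, and all groups overlapped. At MIR4321 it was 1544, 2235 and 2399 bp in control, 2443, 2539 and 2497 bp at day 1 and 601, 521 and 582 bp at day 10. The day 10 lists lay far below both other groups, a log2 difference from control of -1.64 (SE 0.13, limma adjusted p = 0.000351). At MIR6775 the day 1 lists (914, 896 and 919 bp) stood above control (364, 445 and 322 bp) and day 10 (324, 364 and 391 bp), with a log2 difference from control of 1.29 (SE 0.18, limma adjusted p = 0.00437).

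The second question is how the regions changed in cells that survived cisplatin. The rule asked for a peak in all 9 lists, so a region that closed entirely is not among them. Within that limit, 130 of the 6015 (2.16%) were longer at day 1 than in control and 71 (1.18%) shorter, by limma on log2 covered length with each list centred on its median and Benjamini-Hochberg adjustment at 0.05 over 65125 regions. Over all regions tested 1.96% were longer and 1.62% shorter. At day 10, 95 (1.58%) were longer and 94 (1.56%) shorter, where 1.91% and 1.07% of all regions were. From day 1 to day 10, 6 (0.0998%) were longer and 78 (1.30%) shorter, where 0.147% and 0.685% of all were. The 2 comparisons with control share the control lists. Median log2 differences of the 6015 were 0.01, 0.04 and 0.05, beside -0.03, 0.03 and 0.09 over all regions.

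These splits depend on scaling. Scaled to each list's total covered length, 104 were longer and 378 shorter at day 1 and 37 and 256 at day 10, and this moved the median of all regions to -0.19 and -0.15. The shorter made up 6.28% and 4.26% of the 6015, where 9.85% and 3.64% of all regions were shorter, and the longer 1.73% and 0.615%, where 1.54% and 1.02% of all were. Without centring there were 50 and 24, and 20 and 85, where 0.820% and 0.544%, and 0.471% and 0.931%, of all regions were longer and shorter, and the median of all regions at day 10 was -0.16. Single lists moved the counts too: at day 1 the longer and shorter regions were 221 and 135 without control replicate 1, 55 and 26 without control replicate 2, 57 and 24 without day 1 replicate 2 and 45 and 24 without day 1 replicate 3, and 24 were shorter without control replicate 3. The shares of all regions in the first 4 fits were 3.16% and 3.00%, 0.898% and 0.528%, 0.950% and 0.557%, and 0.745% and 0.474%, and in the last 0.573%. At day 10 the longer were 236 without control replicate 1 and 23 to 49 without any other single list of the comparison, and the shorter 202 without control replicate 1, and 60, 51 and 54 without control replicate 2, control replicate 3 and day 10 replicate 2. Of all regions, 4.23% were longer in the first fit and 0.745% to 1.20% in the others, and 2.70%, 0.540%, 0.445% and 0.442% were shorter. Without the replicate 1 lists of every group, whose peaks were narrower, 274 were longer and 207 shorter at day 1, 306 and 286 at day 10, and 16 and 98 from day 1 to day 10, where 3.67% and 4.68%, 5.12% and 4.21%, and 0.553% and 1.17% of all regions were. Between the treated times the shorter regions were 45 and 27 without day 1 replicates 2 and 3 and 40 and 51 without day 10 replicates 2 and 3, where 0.372%, 0.267%, 0.405% and 0.640% of all regions were.

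A measure that needs no scaling is the rank of a region's summed peak area among the same 65125 regions, from 0 to 100 percent in each list. The 6015 ranked low in every list, with medians of 33.7, 31.7 and 31.0% in control, 35.7, 32.8 and 32.4% at day 1 and 31.2, 28.6 and 27.1% at day 10. As groups, day 1 and day 10 lists overlapped control, and the replicate 1 list was the highest in each group. Taken by replicate number, each day 1 median lay above that of control and each day 10 median below that of day 1 and of control. By limma on ranks, 1044 (17.4%) were higher and 777 (12.9%) lower at day 1, where 16.1% and 16.8% of all regions were. At day 10, 733 (12.2%) were higher and 1065 (17.7%) lower, where 14.7% and 12.1% were. From day 1 to day 10, 196 (3.26%) were higher and 693 (11.5%) lower, where 5.25% and 6.08% were. The median rank change of the 6015 was 0.28 points at day 1, -2.23 at day 10 and -2.09 between the treated times, beside -0.77, -0.56 and 0.69 over all regions.

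In the fit of ranks, same-numbered replicates taken as pairs gave 1321 lower at day 1 (22.0%, where 28.0% of all regions were), and 590 higher and 1342 lower from day 1 to day 10 (9.81% and 22.3%, where 15.8% and 13.5% of all were). Without day 1 replicate 3 there were 439 lower at day 1 (10.3% of all regions were) and 63 higher and 329 lower between the treated times, without control replicate 2 475 lower at day 1 (10.1% of all), and without day 10 replicate 2 675 lower at day 10 (7.05% of all) and 82 higher and 361 lower between the times. Without control replicate 3, 699 were lower at day 10 (6.85% of all). Between the times, 90, 106 and 95 were higher without day 1 replicate 2, day 10 replicate 1 and day 10 replicate 3, the last with 393 lower. Without day 1 replicate 3, day 10 replicate 2 or day 10 replicate 3, the lower made up 5.47%, 6.00% and 6.53% of the 6015 between the treated times, where 2.62%, 3.17% and 3.62% of all regions were lower, and 1.92%, 1.88% and 2.07% of all were higher. Without day 1 replicate 2 and day 10 replicate 1, 2.86% and 2.55% of all were higher.

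**Figure D4:**
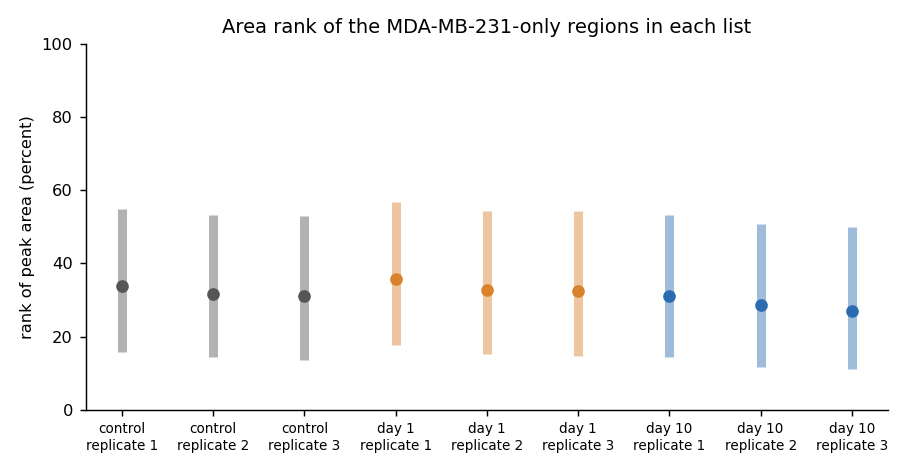
For each MDA-MB-231 list, the point is the median and the bar the range from the lower to the upper quartile of the area rank (percent, 100 highest) of the 6015 MDA-MB-231-only regions among 65125 regions. Medians run from 27.1% in day 10 replicate 3 to 35.7% in day 1 replicate 1.

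The list length taken up by the regions moved with the number of peaks. They held 5.84 ± 0.113% (SD, n = 3) of the covered length in control, 5.28 ± 0.259% at day 1 and 5.06 ± 0.236% at day 10, where the lists had up to 98777 peaks in control and 100564 to 133526 after treatment. By summed area the shares were 4.98 ± 0.117%, 5.07 ± 0.0344% and 4.62 ± 0.111%. When every list was limited to its 50000 peaks of greatest area, the rule applied again gave 5407 regions. Their mean length share was above control by 0.191 points at day 1 and by only 0.030 points at day 10. With all peaks the differences were -0.566 and -0.783 points. The part of peak number in these shares was not tested.

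Single regions differed between groups. Each had to be called in every list, so lengths near the caller's threshold are bounded from below. The SEs and p-values do not account for this. A region in MAPK14, which encodes the stress kinase p38 alpha (chromosome 6, 36111605 to 36112368), covered 220, 212 and 263 bp in control, 761, 744 and 730 bp at day 1 and 301, 341 and 296 bp at day 10. The 3 day 1 lists stood above all others (log2 1.69, SE 0.18, limma adjusted p = 0.000937). The control lists lay low in area rank, at 10.4, 0.599 and 1.25%. Beside CYBA, a subunit gene of the superoxide-producing NADPH oxidase (chromosome 16, 88641284 to 88643099, 0.19 kb from the gene), the lengths were 377, 421 and 498 bp, then 1003, 1808 and 1466 bp, then 464, 456 and 475 bp. Day 1 again stood apart from both other groups (log2 1.69, SE 0.17, limma adjusted p = 0.000751).

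Others rose at day 1 in the same way. In SPTLC3, a sphingolipid synthesis gene (chromosome 20, 13100938 to 13102163), the length was 267, 394 and 253 bp in control, 693, 963 and 1104 bp at day 1 and 260, 253 and 265 bp at day 10 (SE of the log2 difference 0.20 at day 1, limma adjusted p = 0.00242). In KLHL29 (chromosome 2, 23425665 to 23426838) it was 273, 251 and 404 bp, then 886, 920 and 1126 bp, then 252, 556 and 251 bp, and the rise of 1.69 had a limma adjusted p of 0.0114, or 0.0582 without centring and 0.0903 without the replicate 1 lists. Day 10 lists overlapped control in both regions.

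Rises that lasted to day 10 were seen in ZNF273, a zinc finger gene (chromosome 7, 64878657 to 64879392), with 233, 240 and 233 bp in control, 689, 713 and 707 bp at day 1 and 666, 666 and 736 bp at day 10. Both treated groups lay above control, by 1.58 (SE 0.17) and 1.75 (SE 0.17) on the log2 scale, with limma adjusted p = 0.000887 and 0.000647. Its control lists had area ranks of 5.35, 1.30 and 0.843%. In TRPM2, a calcium-permeable channel opened under oxidative stress (chromosome 21, 44437752 to 44439421), the lengths were 553, 481 and 478 bp, then 1201, 1182 and 989 bp, then 1100, 1618 and 1548 bp. The log2 rise at day 10 was 1.68 (SE 0.21, limma adjusted p = 0.00201). Near DENND1B (chromosome 1, 197799136 to 197799710, 17.0 kb away) control lists had 191 to 213 bp, day 1 lists 418 to 441 bp and day 10 lists 412 to 537 bp (log2 at day 10 of 1.49, SE 0.20, limma adjusted p = 0.00298). Control area ranks there were 0.418, 4.26 and 0.720%.

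Near ROR2, a WNT5A receptor (chromosome 9, 91711429 to 91712629, 9.97 kb away), the rise came at day 10: lengths were 258, 342 and 321 bp in control, 484, 369 and 383 bp at day 1 and 882, 919 and 804 bp at day 10. The day 10 lists stood above both other groups (log2 1.70 against control, SE 0.20, limma adjusted p = 0.00153). In SPECC1 (chromosome 17, 20266758 to 20267752) the lengths were 180, 359 and 361 bp, then 427, 800 and 990 bp, then 398, 789 and 912 bp. The replicate 1 list was the lowest of each group, and the day 10 rise of 1.40 (limma adjusted p = 0.0232) did not pass in area rank (limma adjusted p = 0.276), without centring (0.215), with scaling to total length (0.0646), or without control replicate 3 (0.0548), day 10 replicate 2 (0.0919) or day 10 replicate 3 (0.0713).

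Falls at day 1 included a region across SMIM24 and SMIM44 (chromosome 19, 3479170 to 3482195), with 1856, 2789 and 3005 bp in control, 789, 828 and 777 bp at day 1 and 453, 809 and 918 bp at day 10. It stayed short, with log2 differences of -1.64 and -1.65 (SE 0.17 and 0.17, limma adjusted p = 0.000877 and 0.000969). A region 7.73 kb from MAP2K2, the MEK2 kinase gene (chromosome 19, 4081294 to 4082588), had 897, 1108 and 1295 bp, then 411, 383 and 233 bp, then 857, 597 and 803 bp. Its day 1 lists lay below both other groups (log2 -1.71 against control, SE 0.25, limma adjusted p = 0.00537).

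The region at RAB5C, inside the chromosome 17 stretch with STAT3 (42153845 to 42155656), covered 1257, 1772 and 1675 bp in control, 461, 712 and 461 bp at day 1 and 1156, 602 and 1348 bp at day 10. Its day 1 difference was -1.54 (SE 0.26, limma adjusted p = 0.0104; 0.0685 without centring and 0.0793 without the replicate 1 lists). On chromosome 9 a region 12.2 kb from the predicted gene LOC124900275 (129476432 to 129477704) had 547, 989 and 956 bp in control and 231 to 362 bp in all 6 treated lists (log2 at day 1 of -1.57, limma adjusted p = 0.0122; 0.0534 without day 1 replicate 3). In CARD9, an adaptor of innate immune receptors (chromosome 9, 136369716 to 136371374), the lengths were 1659, 1066 and 1455 bp, then 703, 365 and 399 bp, then 311, 352 and 219 bp. The log2 differences were -1.55 and -2.05 (limma adjusted p = 0.0408 and 0.0125). In area rank neither passed (limma adjusted p = 0.204 and 0.247), and the day 1 call was lost without centring (0.0562) and without control replicate 1 (0.0932), control replicate 3 (0.0952), day 1 replicate 2 (0.130) or day 1 replicate 3 (0.138).

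The other 4 falls named at day 10, beside CARD9, were in GAS6, MCF2L, HSPG2 and INF2. In GAS6, the ligand of the AXL receptor (chromosome 13, 113838674 to 113841465), the length was 2104, 2713 and 2748 bp in control, 2214, 2399 and 2781 bp at day 1 and 857, 392 and 443 bp at day 10. Day 1 lists overlapped control and day 10 lists lay far below (log2 -2.04, SE 0.28, limma adjusted p = 0.00355). In MCF2L, a guanine nucleotide exchange factor gene (chromosome 13, 112893361 to 112895850), the lengths were 2069, 2116 and 2485 bp, then 1946, 1435 and 1510 bp, then 658, 428 and 486 bp. All day 10 lists again lay below both other groups (log2 -1.91, SE 0.24, limma adjusted p = 0.00231).

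In HSPG2, which encodes the basement membrane proteoglycan perlecan (chromosome 1, 21856782 to 21858593), control lists had 1094, 1745 and 1788 bp, day 1 lists 1099, 623 and 1257 bp and day 10 lists 354, 293 and 413 bp (log2 at day 10 of -1.91, SE 0.25, limma adjusted p = 0.00297). In INF2, a formin that builds actin filaments (chromosome 14, 104694409 to 104695766), they had 1242, 1244 and 1320 bp, 1275, 593 and 1296 bp, and 231, 227 and 425 bp (log2 at day 10 of -1.98, SE 0.32, limma adjusted p = 0.00828; 0.0638 without the replicate 1 lists). In both, day 10 lists lay below every control and day 1 list.

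**Figure D5:**
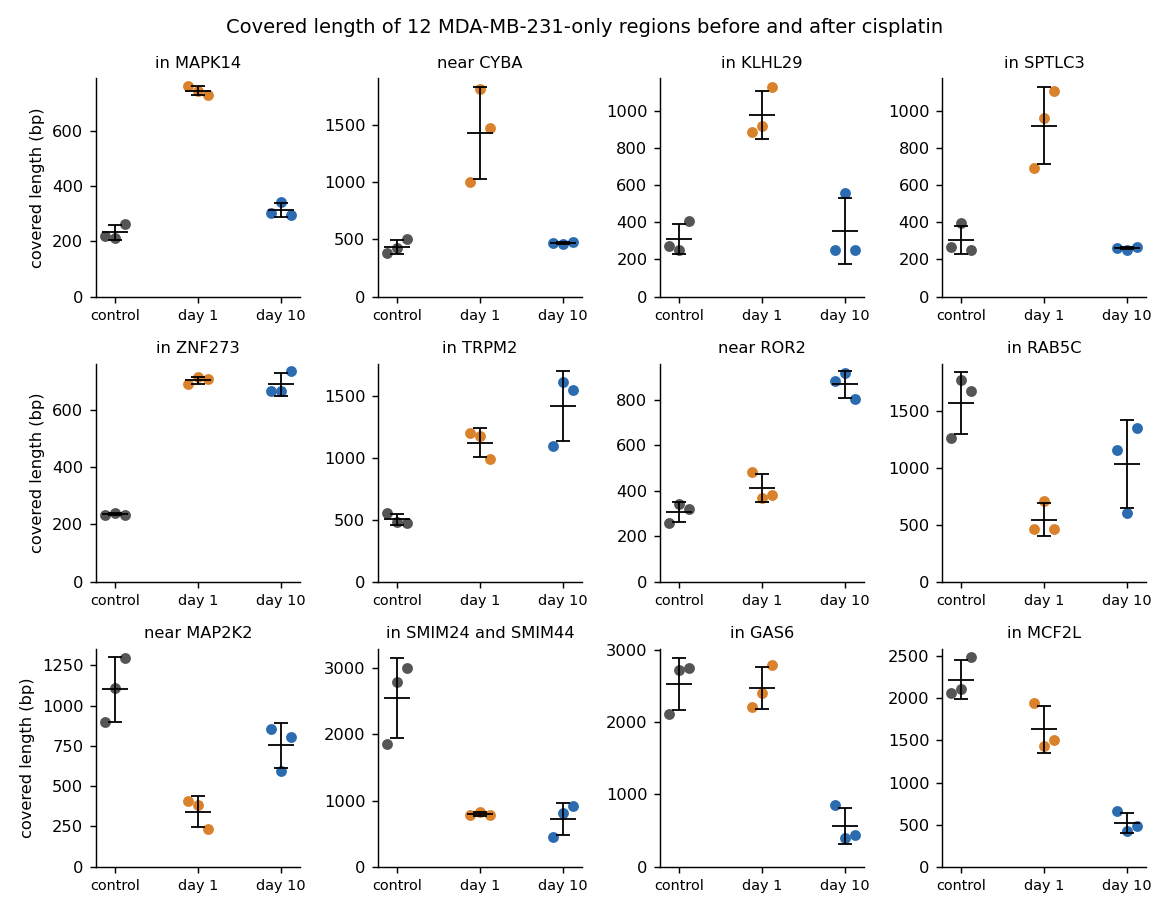
Each panel is an MDA-MB-231-only region, named by its gene; points are the covered length in bp in the 3 lists of control, day 1 and day 10, and the bars the mean ± SD. At MAPK14, CYBA, KLHL29 and SPTLC3 day 1 is highest, at ZNF273 and TRPM2 both treated times are above control, at ROR2 day 10 is high, and at GAS6 and MCF2L day 10 is low.

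Regions without PC3 peaks nearby changed as follows. Of the 35 in the STAT3 stretch, 4 were shorter at day 1 and none longer, where 1.62% and 1.96% of all regions were, and none passed by length at day 10. In area rank 3 were higher and 10 lower at day 1, where 16.1% and 16.8% of all regions were, and 4 and 6 at day 10, where 14.7% and 12.1% were. Of the 19 around TSPAN14, 1 was longer at day 1, and in area rank 9 were higher and 1 lower then and 6 higher and 0 lower at day 10. Of the 9 at CTNNA1 and SIL1, none passed by length, and in area rank 2 were higher and 4 lower at day 1 and 0 and 5 at day 10. Neighbouring regions may not vary independently.

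Of the 38 regions that held zinc finger gene starts, 1 was shorter at day 1, at ZNF69, and by length none passed at day 10. In area rank 1 was higher and 11 lower at day 1, 7 higher and 6 lower at day 10, and 7 higher and 0 lower from day 1 to day 10. Of all regions 16.1% were higher and 16.8% lower at day 1, 14.7% and 12.1% at day 10, and 5.25% and 6.08% between the times, against 2.63% and 28.9%, 18.4% and 15.8%, and 18.4% and 0% of the 38. At ZFP82 the rank was 10.1 points lower at day 1 (limma adjusted p = 0.00241) and 0.7 points above control at day 10 (adjusted p = 0.776). At ZNF268 the rank changes were -32.5 and -32.1 points at the 2 times (limma adjusted p = 0.000819 and 0.000810). Over the 337 regions with a protein-coding start, 49 (14.5%) were higher and 61 (18.1%) lower in rank at day 1, and 30 (8.90%) and 65 (19.3%) at day 10.

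Of the gene starts printed above, TIMP3 and STAT3 passed in rank at day 1. At TIMP3 the covered length was 1051, 1258 and 1279 bp in control, 1017, 699 and 748 bp at day 1 and 1014, 1175 and 1260 bp at day 10; its rank fell by 25.4 points at day 1 (limma adjusted p = 0.0103), while the length did not pass (adjusted p = 0.124). At STAT3 it was 1645, 2156 and 1740 bp, then 1628, 1610 and 1632 bp, then 1623, 1641 and 1644 bp, with no call by length. The rank of STAT3 fell by 1.4 points at day 1 (limma adjusted p = 0.0196) and rose by 1.5 points from day 1 to day 10 (limma adjusted p = 0.0298). At TSPAN14 the lengths were 2722, 3415 and 2832 bp, then 3265, 3389 and 3408 bp, then 2234, 3163 and 3058 bp; the treated groups each overlapped control but not each other, and no comparison passed by length or rank. GATA3 had 835, 1165 and 959 bp in control and 826 to 958 bp after treatment, and no comparison passed by length or rank. HOXD4, whose region covered 1564, 1648 and 1642 bp in control and 424 to 1237 bp in the treated lists, did not pass by length (adjusted p = 0.153 at day 1 and 0.288 at day 10), and its rank changes were -40.4 and -36.3 points (limma adjusted p = 0.00701 and 0.0127).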

How the data were processed

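ATAC-seq was made on 3 biological replicates per group. Tools in the submitters' processing notes are Genrich 0.6.2, SAMtools 1.6, Bowtie2 2.3.5.1, FastQC 0.12.1, Picard and R 4.4.1, with builds GRCh38 and hg38. How the experimental replicates were merged was not given in the sources used here. The deposited lists (narrowPeak layout, no header) give a score in column 7, read from its values as peak area, and a -log10 p-value in column 8. Without read counts the depth behind each list is unknown, and peak calls depend on it.

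Peaks were merged where they overlapped or touched. The covered length of the 65125 regions in 9 of 9 MDA-MB-231 lists was fitted on the log2 scale with limma 3.58.1 in R 4.3.3 (3 groups in 1 fit, lists centred on their median, variance trend on, residual degrees of freedom 6, Benjamini-Hochberg adjustment at 0.05). The authors' areas were used for ranks within a list only. Shares of a list are described without a test. RefSeq (GRCh38.p14) gave the ends of 19974 protein-coding genes, with no strand or exons, and starts from its promoter table, which has 15812 of these genes. 

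The regions, gene lists and motifs were chosen with earlier results of these data known. Named were the 10 widest regions, the 10 genes with the most regions, up to 5 rises and 5 falls per treated group with non-overlapping lists, up to 4 genes per list by number of regions, and the 5 longest stretches without PC3 peaks; further names are marked, and some items that the rule names are not reported here. Deviations from group means, over regions, correlated above 0.1 for same-numbered lists of day 1 and control (0.458, 0.219 and 0.196) and of day 10 and day 1 (0.430, 0.127 and 0.186), but not of day 10 and control (0.391, 0.077 and 0.226). Lists 2 and 3, which differ in number, correlated by 0.153 and 0.196 between day 1 and control. Between day 10 and day 1 they correlated by 0.207 and 0.110. So replicate 1 stood apart, and a pairing of replicates 2 and 3 is not shown. The main fits took no pairs, and the replicate block is an alternative only. Alternatives were other scalings, peak area ranks, a wider set of regions, no trend, the replicate block, smaller lists, other merging and overlap, and lists left out. The rank fits with their own block and left-out lists, the removal of all replicate 1 lists and that of stretches without PC3 peaks were chosen after seeing the data.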

Additional observations from a re-analysis of the deposited data

Results flagged for a closer look

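For 9 named regions the 2 treated times differed from each other, by limma on covered length over 65125 regions with an adjusted p under 0.05. The log2 difference of day 10 against day 1 was -2.02 in GAS6 (SE 0.28, adjusted p = 0.00723), -1.63 in INF2 (adjusted p = 0.041), -1.61 in SPTLC3 (adjusted p = 0.00423), -1.45 in MCF2L (adjusted p = 0.0183), -1.38 near CYBA (adjusted p = 0.00397), -1.25 in HSPG2 (adjusted p = 0.0478) and -1.06 in MAPK14 (adjusted p = 0.0214). It was 1.28 near ROR2 (adjusted p = 0.0131) and 1.36 near MAP2K2 (adjusted p = 0.0342). In area rank the difference passed for GAS6, MCF2L, CYBA, MAPK14 and ROR2, and not for HSPG2 (adjusted p = 0.0786), INF2 (0.181), SPTLC3 (0.0601) or MAP2K2 (0.0645). These regions were named for their change from control at either time, and both differences use the same treated lists.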

How the results depend on the processing

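The number of regions was 3683 with the upper 50% of each list by area and 6025 to 7698 with lists left out, the highest without replicate 1 of either line. Leaving out a list loosens the rule, but peaks were merged anew without it and a region could also split. With 50000 peaks per list the mean share of list length was above control by 0.191 points at day 1 and by only 0.030 points at day 10. With all peaks it was below control at both times. The share of peak number differed by 0.011 points from day 1 to day 10, against a lower length share. With lists left out the 3 length differences ran from -0.745 to -0.455, -0.981 to -0.669 and -0.380 to -0.054 points. Shares with 50000 peaks or with lists left out are of the regions that the rule gave on those lists.

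Counts by covered length were 50 longer and 24 shorter at day 1, 20 longer at day 10 and 2 longer between the times without centring. In that fit 0.0522% of all regions were longer between the times. Scaled to total length there were 378 shorter at day 1, and 37 longer and 256 shorter at day 10. With regions in at least 3 of 9 lists and log2(length + 100 bp) there were 544 shorter at day 1, 60 longer and 661 shorter at day 10, and 12 longer and 129 shorter between the times, where 9.51%, 14.4%, 8.29%, 3.28% and 3.64% of the 117567 regions tested were, against 9.04%, 0.998%, 11.0%, 0.200% and 2.14% of the 6015. Some of the 117567 lack a peak in some lists and can gain or lose one, while the 6015 by the rule cannot. Those shares are therefore partly set by the rule. Area rank gave 1044 and 777, 733 and 1065, and 196 and 693. With lists left out, including all of replicate 1, counts ran from 45 to 274 longer and 24 to 207 shorter at day 1, 23 to 306 and 51 to 286 at day 10, and 1 to 16 and 27 to 98 between the times, the highest each without replicate 1. The 1, 1, 2 and 3 longer between the times were without day 1 replicates 2 and 3 and day 10 replicates 3 and 1, and 10 without day 1 replicate 1. In these fits 0.0630%, 0.0553%, 0.0875%, 0.0845% and 0.287% of all regions were longer. At day 10, 33, 45, 49, 23 and 49 were longer without control replicates 2 and 3 and day 10 replicates 1, 2 and 3.

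For rank counts the ranges were 752 to 1172 higher and 439 to 920 lower at day 1, 516 to 809 and 675 to 1255 at day 10, and 63 to 235 and 329 to 740 between the times. In the fits at these ends, 11.0% and 17.5% of all regions were higher and 10.3% and 18.5% lower at day 1. The shares of all regions were 10.9% and 15.7%, and 7.05% and 14.4%, at day 10. Between the times they were 1.92% and 5.57%, and 2.62% and 6.79%. The replicate block gave 164 longer and 101 shorter at day 1, 116 and 122 at day 10 and 9 and 76 between the times, within 1.5 times the counts reported. Among all regions the shares longer and shorter were 2.50% and 2.79%, 2.42% and 1.49%, and 0.342% and 0.729%. For ranks the block gave 1321 lower at day 1, 1134 higher and 1761 lower at day 10, and 590 and 1342 between the times. The day 10 counts were 18.9% and 29.3% of the 6015, where 21.7% and 23.3% of all regions were. At day 1, 28.0% of all regions were lower, and between the times 15.8% were higher and 13.5% lower. The block changed no call by length among the 20 pairs of a region and a comparison named for a rise or fall. Regions named for other reasons were not compared. The cause of these shifts was not tested. Of 260 values for the 20 pairs of a named region and a comparison, 241 kept direction and call, 19 kept the direction only and 0 reversed. Peak calling without read counts limits what a change in length can show.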
